A study of Mus musculus with 6 samples.

Results

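Tetraspanin genes were followed in the subventricular zone, the stem cell niche along the lateral ventricle, after an experimental stroke. The 9 genes were chosen by name: Cd9, Cd63, Cd81, Cd82, Cd151, Cd37, Tspan3, Tspan4 and Tspan7. A gene was read where the array annotation gave a probe set its symbol and no other, and of several such probe sets the brightest on average over the 6 arrays was used. This gave values for 7 of the 9 genes, of 18194 genes measured in all; no such probe set was matched to Cd63 or Tspan7, which were not analysed here. The 7 genes had 14 probe sets.

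The tissue came from male C57BL/6 mice, described as adult and without a stated age, transgene or other treatment. Of the arrays, 3 held RNA of mice with middle cerebral artery occlusion (MCAO), in which the vessel that feeds much of the striatum and lateral cortex is blocked, and the subventricular zone of the injured hemisphere was taken after 48 h. The other 3 held the same region 48 h after sham surgery. The labels do not say how long the artery was blocked, or whether an array held 1 mouse or a pool. So the p-values measure the spread between these 6 samples alone, and that spread may be technical.

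Tetraspanins are small proteins that cross the membrane repeatedly and gather integrins, adhesion molecules, proteases and growth factor precursors into platforms in the plane of the membrane. Through these partners they act on adhesion, migration, cell fusion and the sorting of cargo into endosomes and extracellular vesicles, and CD9, CD63 and CD81 are the proteins most used to mark such vesicles. In the brain, CD9 and CD81 are found on glia, CD37 and CD53 on leukocytes and microglia, TSPAN2 and CD9 on myelinating cells, and TSPAN7 on neurons.

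In tissue after MCAO the transcripts of Cd9 and Tspan4 about doubled, those of Cd151 were higher by a smaller and less even amount, and those of Cd82 and Tspan3 lay within the spread between arrays. Cd9 rose 2.08-fold and Tspan4 rose 1.92-fold (adjusted p = 0.00716 and 0.0127 by limma, adjusted over all genes). Of the 7 measured genes 2 rose, 0 fell and 5 did not pass an adjusted p of 0.05, where 1.12% of all genes rose, 0.0165% fell and 1.13% passed in either direction. With the sample number as a block, which compares samples 1, 2 and 3 of each group with their namesakes, 4 rose and 0 fell, where 4.82% of all genes rose and 6.12% passed in either direction; Cd151 and Cd81 were added. On the deposited values, with no quantile normalization added, 2 rose (1.03% of all genes), and 3 rose with the block (4.2% of all genes; 0.28% fell, and 4.48% passed in either direction). The median difference of the 7 was 0.29 log2, and that of all genes was −0.0064. In 4 of the 7 the MCAO arrays did not overlap the sham arrays, and all 4 were higher in MCAO. Of all genes 13.8% did not overlap, 8.44% higher and 5.37% lower. The genes were picked with earlier results of these data known, so these counts describe the 7 and support no statement on tetraspanins at large.

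**Figure D1:**
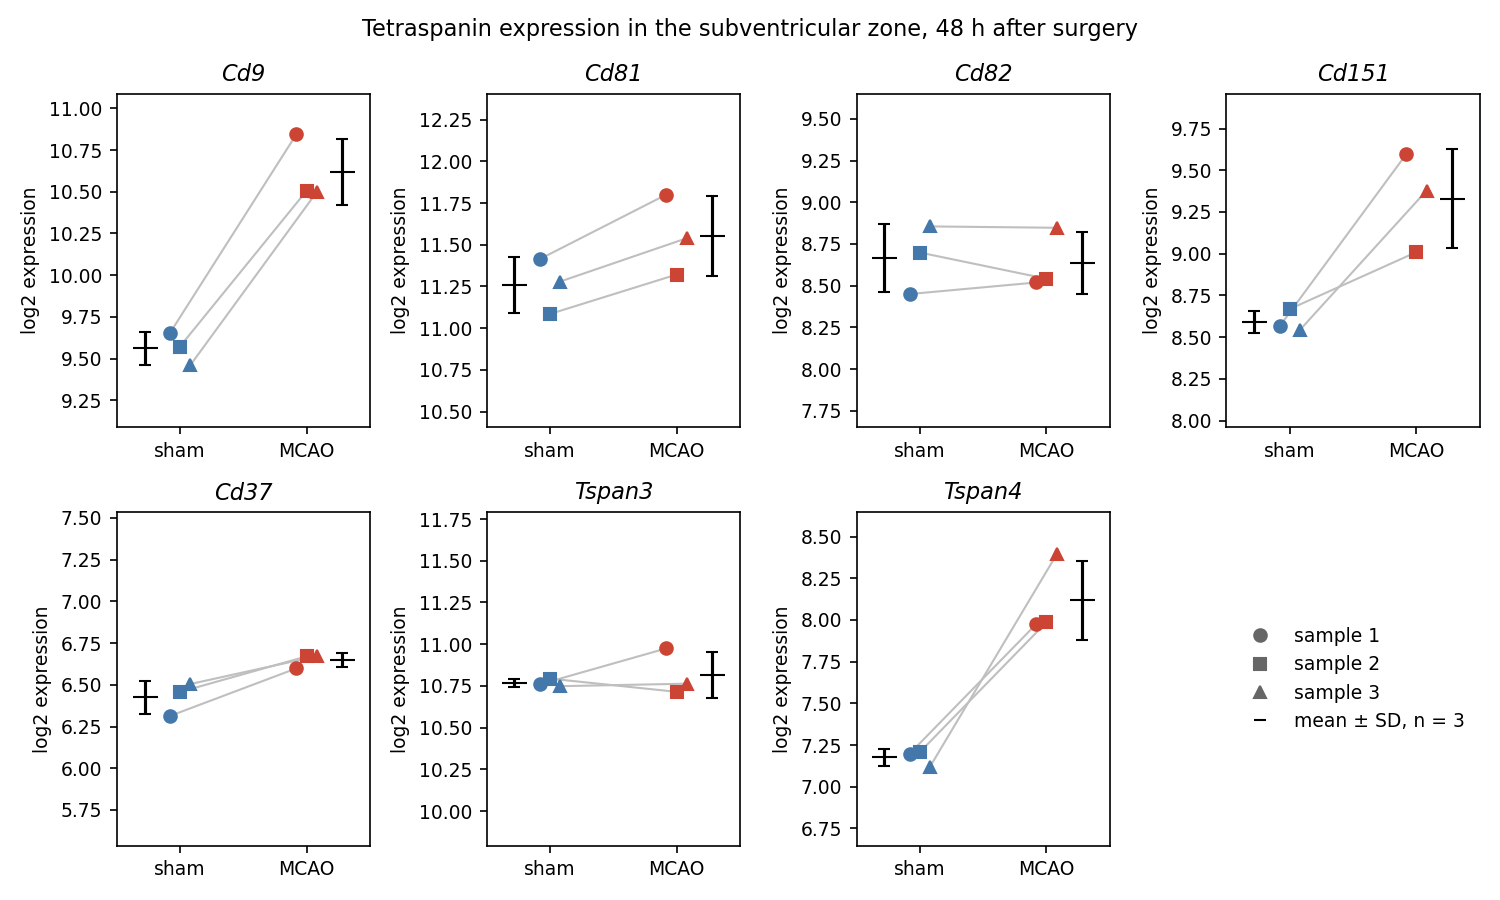
Log2 expression of the 7 measured tetraspanins on each array, with sham in blue and MCAO in red, grey lines between same-numbered samples, and bars for the mean ± SD of 3 arrays; every panel spans 2 log2 units. The MCAO points of Cd9 (10.50 to 10.85) and Tspan4 (7.98 to 8.39) stand clear of sham, and those of Cd82 and Tspan3 overlap it.

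Cd9 encodes a tetraspanin that binds integrins and immunoglobulin-superfamily partners and is expressed by neural stem cells, astrocytes, myelinating cells and myeloid cells. Its log2 values were 10.85, 10.51 and 10.50 in MCAO samples 1, 2 and 3, and 9.65, 9.57 and 9.46 in sham samples 1, 2 and 3. Every MCAO array lay above every sham array, by more than the range within either group. The means were 10.62 ± 0.20 and 9.56 ± 0.097 (SD, n = 3), a difference of 1.06 ± 0.11 log2 (moderated SE). Within same-numbered samples the differences were 1.19, 0.93 and 1.04, so the 3 pairs gave rises of like size. The gene was read by 1 probe set. Without sham sample 3 the difference was 1.00 and no longer passed (adjusted p = 0.0574).

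Tspan4 encodes a tetraspanin known as a component of migrasomes, vesicles that migrating cells leave on their retraction fibres. Its log2 values were 7.98, 7.99 and 8.39 in MCAO samples 1 to 3, and 7.20, 7.21 and 7.12 in sham samples 1 to 3. The sham arrays were nearly level, and MCAO sample 3 stood above the other MCAO arrays. The means were 8.12 ± 0.24 and 7.18 ± 0.048 (SD, n = 3), which gave a difference of 0.94 ± 0.12 log2 (SE). Pair differences were 0.78, 0.78 and 1.27. The call was lost without sham sample 2 (0.96, adjusted p = 0.0516) or sham sample 3 (0.92, adjusted p = 0.090), with a difference of about the same size; without MCAO sample 3 it was 0.81 and passed (adjusted p = 0.0215).

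Cd151 encodes the tetraspanin that holds laminin-binding integrins at basement membranes and is abundant in vessels. Its log2 values were 9.60, 9.01 and 9.38 in MCAO samples 1 to 3, and 8.57, 8.67 and 8.54 in sham samples 1 to 3. The groups did not overlap, and MCAO sample 2 was nearest to sham. The difference was 0.74 ± 0.14 log2 (SE, n = 3 per group), or 1.67-fold, and did not pass (adjusted p = 0.0707). When the sample number was a block it passed (adjusted p = 0.00329), as it did without MCAO sample 2 (0.90, adjusted p = 0.0209). Pair differences were 1.03, 0.34 and 0.84.

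The 6 probe sets of Cd151 did not read alike. The one that stands for the gene, 1456085_x_at, carries a suffix for probes that may also bind other transcripts. A second of that kind, 1437670_x_at, read 0.71 ± 0.10 log2 higher in MCAO (SE) and passed in a fit over all probe sets with 1 symbol (adjusted p = 0.0287). The probe sets 1424093_x_at and 1451232_at read 0.47 and 0.43 higher, with no overlap between groups, and did not pass (adjusted p = 0.171 and 0.275). The probe sets 1420921_at and 1427525_at read 0.015 and −0.0033, with groups that overlapped. When all its probe sets were averaged, Cd151 read 0.39 higher (adjusted p = 0.107), so the size of its difference depended on which probe sets were read.

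**Figure D2:**
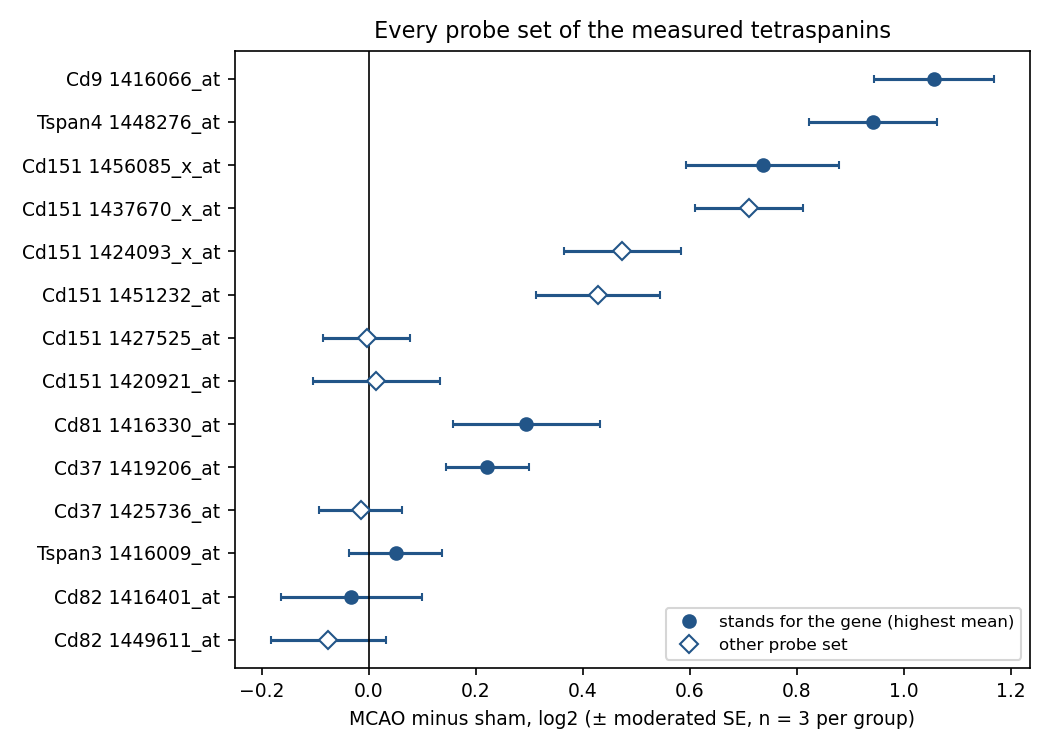
MCAO minus sham on the log2 scale for the 14 probe sets of the 7 genes, with moderated SE bars, n = 3 per group. Filled circles mark the probe set that stands for a gene and open diamonds the others; those of Cd151 run from −0.0033 to 0.74.

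Cd151 and Tspan4 lie near each other on chromosome 7, both on the forward strand. In RefSeq's GRCm38.p6 annotation 3754 bases separate the end of Cd151 (chr7:141467362-141471481) from the start of Tspan4 (chr7:141475236-141493427). Genes other than the 9 were not looked for in this gap or in the windows below. A printed window may therefore also hold sequence of another gene. Cd9 lies on chromosome 6 (chr6:125460266-125494760). The promoters of these 3 genes are shown because they had the smallest p among the measured tetraspanins. Each is the 250 bases before the first RefSeq start (of 1 in Cd9 and 2 in the others), 5′ to 3′ on the gene's strand, from chr6:125494761-125495010 for Cd9, chr7:141474986-141475235 for Tspan4 and chr7:141467112-141467361 for Cd151. Capitals mark the GC box, GGGCGG or its reverse complement, which Sp-family factors bind.
Cd9: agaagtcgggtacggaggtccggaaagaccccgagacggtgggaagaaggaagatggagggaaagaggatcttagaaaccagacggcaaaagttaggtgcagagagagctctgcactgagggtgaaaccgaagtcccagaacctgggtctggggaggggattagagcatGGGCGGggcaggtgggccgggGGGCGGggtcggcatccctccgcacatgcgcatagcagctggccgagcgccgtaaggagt
Tspan4: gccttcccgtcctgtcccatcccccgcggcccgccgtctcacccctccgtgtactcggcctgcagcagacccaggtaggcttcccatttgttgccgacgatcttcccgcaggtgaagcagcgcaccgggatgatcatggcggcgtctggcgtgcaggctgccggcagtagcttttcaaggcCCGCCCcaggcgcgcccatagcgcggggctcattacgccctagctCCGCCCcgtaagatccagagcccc
Cd151: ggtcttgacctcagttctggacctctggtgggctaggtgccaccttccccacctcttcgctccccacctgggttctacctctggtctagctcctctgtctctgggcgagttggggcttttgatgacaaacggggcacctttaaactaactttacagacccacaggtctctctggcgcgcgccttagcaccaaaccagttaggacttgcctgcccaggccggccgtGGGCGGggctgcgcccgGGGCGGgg

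All 3 windows held 2 GC boxes, beginning 81 and 60 bases before the start in Cd9, 69 and 24 in Tspan4, and 25 and 8 in Cd151. At least 1 GC box occurs in 32.7% of 32851 windows of this length, and the share with 2 was not counted. The windows of Cd9, Tspan4 and Cd151 were 61.6%, 68.0% and 62.4% G or C, where the median of all windows was 52.4%. Among the other genes, the first window of Cd81 held 3, those of Cd82 and Cd37 held 1 each, and that of Tspan3, which did not pass, held 0, so the number of GC boxes did not follow the differences in order. The AP-1 letters TGANTCA, the STAT letters TTCNNNGAA, the NF-kappaB letters GGANTTTCC, the TFEB letters TCACGTGA and the TATA box TATAAA were in none of the 3 printed windows on either strand; they are in 6.75%, 7.02%, 1.07%, 0.785% and 12.4% of all windows. The PU.1 letters GAGGAAGT, those of a factor of myeloid and B cells, were in the window of Cd37, 25 bases before its start, in the third of the 4 Cd82 windows, 225 bases before that start, and in 2.44% of all windows. The GC box was the only searched motif in the 3 printed windows, so different motifs could not overlap there. A match is a description of letters, and these arrays do not show which start was used.

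Cd81 encodes a partner of integrins and of the B-cell coreceptor, is present on astrocytes and microglia, and is a standard vesicle marker. Its log2 values were 11.80, 11.32 and 11.54 in MCAO samples 1 to 3, and 11.41, 11.09 and 11.28 in sham samples 1 to 3. The groups overlapped, since sham sample 1 lay above MCAO sample 2, yet both groups kept the same order, with sample 1 highest and sample 2 lowest. The difference was 0.29 ± 0.14 log2 (moderated SE, 3 arrays per group; adjusted p = 0.637), with pair differences of 0.39, 0.24 and 0.26. When the sample number was a block the SE was 0.069 and the call passed (adjusted p = 0.0333), but on the deposited values the block gave 0.32 (adjusted p = 0.0672).

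Cd37 encodes a tetraspanin of B cells and other leukocytes. Its log2 values were 6.60, 6.67 and 6.67 in MCAO samples 1 to 3, and 6.31, 6.46 and 6.50 in sham samples 1 to 3. All MCAO arrays were above all sham arrays by a small margin. The difference was 0.22 ± 0.079 log2 (SE, n = 3 per group) and passed neither without the block (adjusted p = 0.412) nor with it (adjusted p = 0.0928). The gene fell among the dimmer genes that one alternative left out, and its other probe set read −0.015 with overlapping groups.

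Cd82, whose protein restrains migration and is known as a suppressor of metastasis, read 8.52, 8.54 and 8.85 in MCAO samples 1 to 3 and 8.45, 8.70 and 8.86 in sham samples 1 to 3. The groups overlapped throughout, and in both of them sample 3 was highest and sample 1 lowest. The difference was −0.032 ± 0.13 log2 (SE; adjusted p = 0.988), and 1 of 3 pairs was higher in MCAO. A second probe set read −0.075. Tspan3, a widely expressed tetraspanin that binds a claudin of myelin, read 10.98, 10.71 and 10.76 in MCAO samples 1 to 3 and 10.76, 10.79 and 10.75 in sham samples 1 to 3. Apart from MCAO sample 1, its arrays were nearly level and the groups overlapped. Its difference was 0.050 ± 0.087 log2 (SE; adjusted p = 0.965).

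The responses of the 7 genes were compared by taking, on each array, the log2 difference between a pair of genes. In 13 of 21 pairs this difference did not overlap between MCAO and sham. Each of the 13 held Cd9, Cd151 or Tspan4, the genes with the largest differences. The pairs reuse the same 7 genes, so the count largely restates those differences. The share over all pairs of genes was not computed, here or within same-numbered samples. An exact 2-sided permutation test of 3 arrays against 3 cannot go below p = 0.1, a value which these 13 pairs reached, and the smallest value adjusted over the 21 pairs was 0.162, so no pair passed. Within same-numbered samples, a comparison added after the data were seen, the response of 19 of the 21 pairs differed with one sign in all 3: the 13 and 6 that overlapped. Among those 6 Cd81 exceeded Tspan3 by 0.17, 0.32 and 0.24 and Cd82 by 0.32, 0.39 and 0.27. Pairs with Cd63 or Tspan7 could not be formed. Cd9 exceeded Tspan3 in its response by 1.01 log2, Cd82 by 1.09, Cd81 by 0.76 and Cd37 by 0.83, each with no overlap. Cd9 and Tspan4 differed by 0.11 with overlap (exact p = 0.7). Tspan4 and Cd151 likewise overlapped, with Cd151 lower by 0.21 (exact p = 0.4). Cd9 exceeded Cd151 by 0.32 with no overlap.

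Over the 6 arrays, Eif4e2, Fam111a and Ms4a6b ran most like Cd9 in log2 values, at Pearson's r of 0.997, 0.995 and 0.995. Eif4e2 encodes a cap-binding protein, Fam111a a protease of replicating cells, and Ms4a6b a membrane protein of myeloid cells. With 6 arrays that share a contrast, 217 genes reached r of 0.95, so these are no more than the nearest of many. Ms4a6b rose by 1.31 log2 (adjusted p = 0.00405) and Fam111a by 0.83 (adjusted p = 0.0135), while Eif4e2 read 0.37 higher (adjusted p = 0.0632). For Cd82, the gene with the lowest difference, the nearest were Pard3, a polarity protein, Zdhhc1 and Adam25, at r of 0.995, 0.992 and 0.991, and 96 genes reached 0.95. None of these passed, with differences of −0.051, −0.021 and −0.0013.

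The rest of the family set these genes in context. Of 31 tetraspanin genes listed, 29 were measured; 3 rose, 0 fell and 26 did not pass, where 1.12% of all genes rose and 0.0165% fell. Their median difference was 0.050 log2. The third that rose was Cd53, a tetraspanin of all leukocytes and of microglia. It read 9.31, 8.96 and 9.06 in MCAO samples 1 to 3 and 8.02, 8.11 and 7.95 in sham samples 1 to 3, with the groups far apart. It rose by 1.08 ± 0.10 log2 (moderated SE, 3 arrays per group; adjusted p = 0.00481), or 2.12-fold, and kept its call whichever array was left out. Its other probe set read 0.13 higher (adjusted p = 0.841 over all probe sets), and with the mean of both Cd53 read 0.61 and still passed.

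When the sample number was a block, 9 family genes rose and 1 fell, where 4.82% of all genes rose and 1.3% fell. On the deposited values the same block gave 7 that rose and 0 that fell, where 4.2% of all genes rose and 0.28% fell. Tspan14, one of the tetraspanins that carry the protease ADAM10 to the cell surface, read 0.34 log2 higher, with no overlap between groups (adjusted p = 0.415, and 0.0234 with the block). Of the 6 genes of that subgroup it alone passed with the block. Tspan12, a coreceptor of Norrin signalling in retinal vessels, read 0.32 higher (0.70, and 0.0229 with the block), and Tspan6 read 0.39 higher (0.683, and 0.0221). Without MCAO sample 1 Tspan12 read 0.17, and without MCAO sample 3 Tspan6 read 0.62. Tspan31 read 0.30 higher with no overlap (0.222, and 0.0290 with the block), but did not pass when the block was used on the deposited values (0.0526), and read 0.17 when its probe sets were averaged.

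Tspan2, a tetraspanin of myelinating oligodendrocytes, was the lowest of the family. It read 10.14, 9.60 and 10.20 in MCAO samples 1 to 3 and 10.32, 9.96 and 10.62 in sham samples 1 to 3. The groups overlapped, while all 3 pairs were lower in MCAO, by values of −0.18, −0.36 and −0.42. Its difference of −0.32 ± 0.21 log2 (SE, n = 3 per group) did not pass (adjusted p = 0.818). Without MCAO sample 2 the difference was −0.13, without sham sample 3 −0.16 and without sham sample 2 −0.49. It passed with the block (adjusted p = 0.0296) but not when the block was used on the deposited values (−0.28, adjusted p = 0.171). Its other probe sets read −0.20 and −0.16. Of 8 measured markers of mature oligodendrocytes, 0 passed by limma with or without the block (at an unadjusted p under 0.05, 0 without the block, and with it 2, Opalin and Cnp, both lower), with a median of −0.13. Those 2 are named after their values were seen.

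**Figure D3:**
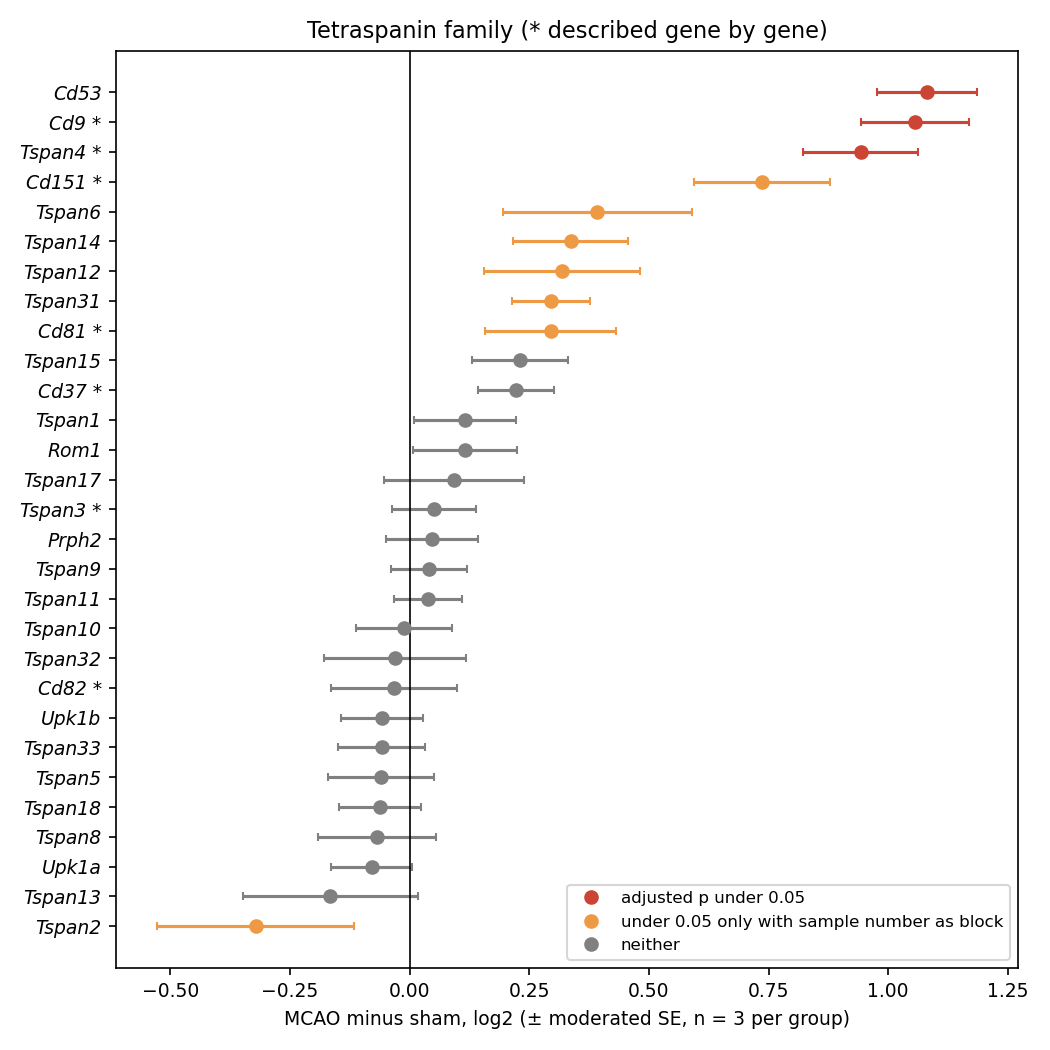
MCAO minus sham on the log2 scale for the 29 measured tetraspanin genes, with moderated SE bars, n = 3 per group, coloured by whether they passed an adjusted p of 0.05 without the block, only with it, or neither. Cd53, Cd9 and Tspan4 lie highest at 1.08, 1.06 and 0.94, and Tspan2 lowest at −0.32.

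Genes of proteins that tetraspanins bind, and of the machinery that releases vesicles, were read from 5 lists with 48 genes, of which 46 were measured. Of these 5 rose, 0 fell and 41 did not pass, with a median of 0.12 log2; 1.12% of all genes rose. With the block 14 rose and 0 fell, where 4.82% of all genes rose and 1.3% fell. These shares of all genes are the ones to read each of the 5 lists against.

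Among integrin subunits 1 of 7 rose, with and without the block. This was Itga6, a laminin receptor subunit bound by CD151, which read 8.61, 8.10 and 8.44 in MCAO samples 1 to 3 and 7.53, 7.28 and 7.51 in sham samples 1 to 3, with no overlap. It rose by 0.95 ± 0.14 log2 (moderated SE, 3 arrays per group; adjusted p = 0.0227), and its call was lost without MCAO sample 3 (adjusted p = 0.117), sham sample 2 (0.0856) or sham sample 3 (0.112), and when its probe sets were averaged (0.89, adjusted p = 0.126). Itga7, another laminin receptor subunit, read 0.29 (adjusted p = 0.319). Itgb1, the shared beta subunit, read 0.25 (adjusted p = 0.930), which rested on MCAO sample 1; without it the difference was −0.069.

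Of 6 genes in the list of immunoglobulin-superfamily partners, which also counts Cr2, not of that superfamily, 1 rose, and 2 did with the block. Vcam1, an adhesion molecule of activated vessels that docks at tetraspanin platforms, rose by 0.82 ± 0.14 log2 (moderated SE, 3 arrays per group; adjusted p = 0.0473). It lost its call on the deposited values (0.86, adjusted p = 0.0803), with arrays shifted to a common median (0.84, 0.0803), when its probe sets were averaged (0.53, 0.0765), and without MCAO sample 3 (0.174), sham sample 1 (0.0979), sham sample 2 (0.145) or sham sample 3 (0.240). Icam1, a related adhesion molecule, read 0.31 (adjusted p = 0.470, and 0.0260 with the block, but 0.0775 with the block on deposited values), and the complement receptor gene Cr2 read 0.11 (0.850). Igsf8 and Ptgfrn, named here because their proteins are the closest direct partners of CD9 and CD81, read −0.12 and 0.12 (adjusted p = 0.971 and 0.862).

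Of 6 genes of proteases, their inhibitor and shed ligands 1 rose, and 3 did with the block. Timp1, a metalloproteinase inhibitor whose protein binds CD63, rose by 1.38 ± 0.17 log2 (moderated SE, 3 arrays per group, adjusted p = 0.0118), or 2.60-fold. Without sham sample 3 it read 1.35 (adjusted p = 0.0841). Its sham samples 1 to 3 read 6.33, 6.62 and 6.40, near the deposited array medians of 6.57 to 6.59. Hbegf, whose membrane precursor is bound by CD9, read 0.54 (adjusted p = 0.166, and 0.00361 with the block), and 0.35 when its probe sets were averaged. The shedding protease gene Adam17 read 0.30 (0.212, and 0.0345 with the block), and Adam10, the protease carried by the Tspan14 subgroup, read 0.16 (0.963).

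Of 9 other surface partners 2 rose, and 5 did with the block, against 1.12% and 4.82% of all genes. Cd44, the hyaluronan receptor, rose by 1.97 ± 0.14 log2 (moderated SE, 3 arrays per group; adjusted p = 0.00304) and kept its call whichever array was left out; when its 4 probe sets were averaged it read 1.15 and still passed. Ifitm3, an interferon-induced membrane protein, rose by 1.65 (adjusted p = 0.0123), a call lost without MCAO sample 2 (1.56, 0.0521), MCAO sample 3 (1.59, 0.0731) or sham sample 3 (1.54, 0.0841). Its relative Ifitm1, whose protein pairs with CD81 on lymphocytes, read 0.46 (0.126, and 0.00381 with the block).

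The genes of endosomal sorting and vesicle release were, at their median, close to the median of all genes. Of 18 measured 0 rose and 0 fell by limma, 2 were higher at an unadjusted p under 0.05, with a median of −0.0034 log2, and with the block 3 rose. Sdcbp, or syntenin, which links CD63 to the sorting machinery, read 0.29 (adjusted p = 0.254, and 0.0309 with the block), the recycling GTPase Rab11a read 0.30 (0.487, and 0.0309) and the membrane raft protein Flot1 read 0.40 (0.667, and 0.0314). On the deposited values with the block, Flot1 passed (0.00952) and Sdcbp and Rab11a did not (0.0714 and 0.0656). Flot1 read 0.23 without MCAO sample 3 and 0.25 without sham sample 1, and Rab11a 0.19 without sham sample 1 and 0.15 when its probe sets were averaged.

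**Figure D4:**
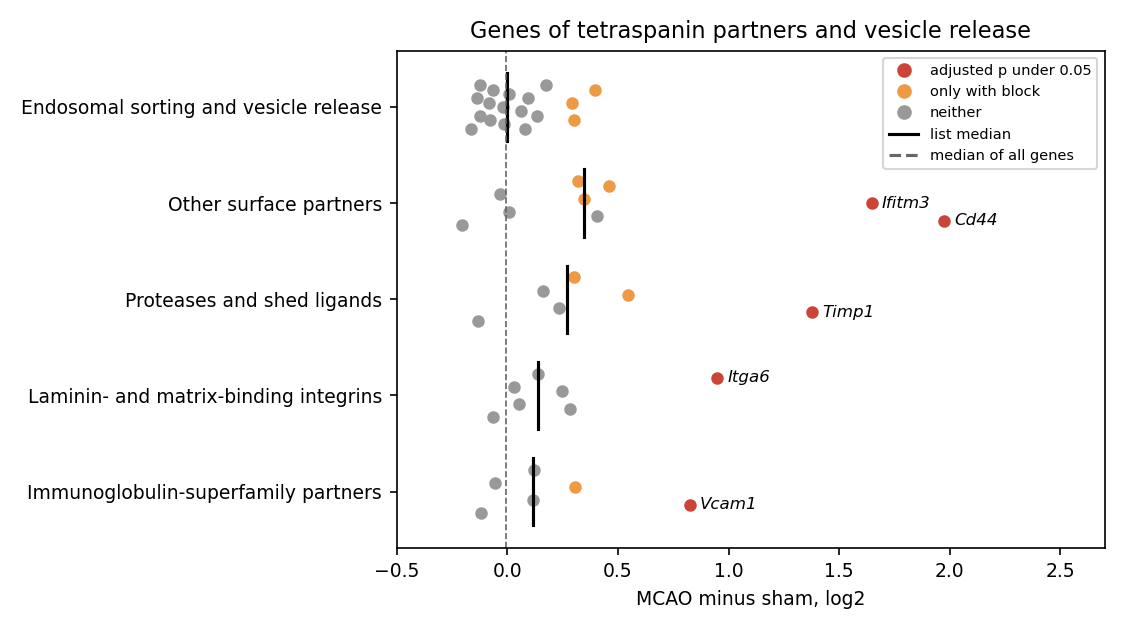
MCAO minus sham on the log2 scale for 46 genes in 5 lists of tetraspanin partners and vesicle release, 1 point per gene, spread vertically only to separate points, with list medians as black bars and the median of all genes dashed. The named points, Cd44, Ifitm3, Timp1, Itga6 and Vcam1, passed without the block; the vesicle list is centred at −0.0034.

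Markers of several cell types moved in the same arrays. In bulk tissue more cells of a type and more RNA per cell cannot be told apart. Of 8 measured microglia markers 3 rose (7 with the block). Of all genes 1.12% rose and 4.82% did with the block, shares that hold for every marker list. The linear levels of the 8 summed to between 5199 and 7975 in MCAO and between 3590 and 3783 in sham. Such sums weigh the brightest genes most. Here the brightest was Csf1r, which read 0.65 log2 higher (adjusted p = 0.341 by limma, and 0.0133 with the block). Of 7 measured markers of monocytes or macrophages 4 rose, with sums of 932 to 1226 against 614 to 652. Of 9 astrocyte markers 2 rose (4 with the block), with sums of 20860 to 23680 against 17770 to 20270. Of the 9, 6 were higher and 3 lower. At an unadjusted p under 0.05 with the block, 4 were higher and 1 was lower. The lower was Slc1a2, at −0.28 log2 (adjusted p = 0.741 by limma, and 0.063 with the block), named after its values were seen. Of 8 neuronal markers 0 passed by limma, 4 were lower at an unadjusted p under 0.05, and 2 fell with the block; their sums were 14900 to 17650 against 17960 to 20440. Of 8 markers of mural cells or fibroblasts 1 rose. The 1 was Tagln, a smooth muscle protein, which rose by 1.95 log2 (adjusted p = 0.0127). Of the 8, 6 were higher and 2 lower. The lower were the pericyte markers Rgs5 and Pdgfrb, at −0.16 and −0.096 (adjusted p = 0.904 and 0.942). Col1a2 and Dcn read 0.32 and 0.19 with no overlap (adjusted p = 0.373 and 0.633). Acta2, Lum and Col1a1 read 0.17, 0.087 and 0.0032 with overlap. These markers were named after their values were seen. Of 7 lymphocyte, 6 neutrophil, 7 endothelial, 6 ependymal, 6 choroid plexus and 6 oligodendrocyte precursor markers 0 passed in each list with or without the block. At an unadjusted p under 0.05 without the block, 2 neutrophil markers and 1 endothelial marker were higher. With the block, 4 ependymal, 3 neutrophil, 2 endothelial, 1 lymphocyte, 1 choroid plexus and 1 precursor marker were higher at that p, and 2 choroid plexus markers were lower. All 6 ependymal markers were higher in MCAO, with sums of 1879 to 2958 against 1569 to 2864. By the means of both groups, all measured neutrophil markers and all lymphocyte markers but Cd3e lay below the deposited array medians of 6.57 to 6.59. So did Kl, Aqp1 and Otx2 of the choroid plexus list, Cdh5 of the endothelial list and Dnah5 of the ependymal list. For such dim genes, the lack of a call says little about the cells. The part of any listed cell type in the rises of Cd9, Tspan4 and Cd53 was not tested. The poly-A control probe sets averaged 7.46 and 7.71 log2 on the arrays numbered 1 and between 8.33 and 8.83 on the other 4; without both arrays numbered 1, Cd9 read 0.99 (adjusted p = 0.00214) and Tspan4 1.03 (adjusted p = 0.00924).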

How the data were processed

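Biotin-labelled total RNA was read on 6 arrays. The authors' deposited values are log2 expression, 1 per probe set, for 45101 probe sets; how these were made is not given in the sources used here. Deposited medians were 6.57 to 6.59, and the top decile began at 8.85 to 9.06, so quantile normalization was added. Probe sets were named from the platform annotation, which gave 1 symbol to 34958; a gene's brightest stood for it (18194 genes).

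Groups were compared with limma 3.58.1 (R 4.3.3; lmFit, eBayes; 2-sided; Benjamini-Hochberg over all genes; threshold 0.05). The main fit took no pairing, and the sample number as a block was an alternative. Deviations from group means correlated between same-numbered MCAO and sham arrays at 0.772, 0.436 and 0.478 over genes. Between unlike-numbered MCAO and sham arrays they correlated at −0.586 to 0.286. Deviations cancel out within a group, so these correlations constrain each other. That the numbers pair the samples was taken from the data, not the labels.

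The genes, lists and tests were chosen with earlier results of these data known. Named by rule were the 7 measured genes, family genes passing with or without the block and always Cd53 and Tspan2. So were the 3 smallest p of each partner list. The rule also took the 3 genes most correlated with the gene of smallest p and with that of lowest difference. Igsf8, Ptgfrn, Adam10 and the single marker genes were named outside that rule. Promoters are RefSeq's, GRCm38.p6, found for all 9 genes; the 7 motifs were searched on both strands. Coordinates are from RefSeq's table. Pair tests used scipy 1.17.1. Alternatives are given in the closing section. The number of arrays limits the precision.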

Additional observations from a re-analysis of the deposited data

How the results depend on the processing

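The count of tetraspanins that passed was 2 of 7; it was 4 with the sample number as a replicate block and ran from 0 to 3 when 1 array was left out, with 1 without sham sample 2 and 0 without sham sample 3. Family genes that passed numbered 3, 10 with the block, 7 when the block was used on the deposited values, and 1 to 4 with 1 array left out (1 without sham sample 3). Partner and vesicle genes numbered 5, 3 when probe sets were averaged, 14 with the block, 10 when the block was used on the deposited values, and 1 to 5 with 1 array left out (2 without MCAO sample 3, 3 without sham sample 2, 1 without sham sample 3). With 1 array left out Cd9 ran from 0.94 to 1.11 log2, Tspan4 from 0.81 to 1.01, Cd151 from 0.60 to 0.90, Cd81 from 0.17 to 0.41, Cd37 from 0.17 to 0.26, Cd82 from −0.14 to 0.062 and Tspan3 from −0.028 to 0.10, the last 2 with changes of sign. With the block Cd151 (0.74) and Cd81 (0.29) passed, and on the deposited values Cd151 (0.76) did; the block changed no other of these calls. Signs turned for Tspan3 without both arrays numbered 1 (−0.032), Cd37 on its other probe set (−0.015), Cd151 on 1 of 5 other probe sets (−0.0033, while another, at 0.71, passed) and Itgb1 without MCAO sample 1 (−0.069, in a range of −0.069 to 0.43); the cause was not tested. The count of 13 pairs of genes without overlap ran from 13 to 18 under alternatives chosen after seeing the data, and with same-numbered samples as a replicate block 19 pairs differed with one sign. Fits without 1 array rest on fewer samples. With dimmer genes left out Cd37 and Timp1 were not tested. Of the partner and vesicle genes 33 were, and 4 passed.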
